A study of Mus musculus with 4 samples.

Results

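The Ly49 receptors are lectin-like proteins on the surface of mouse natural killer cells and of some T cells, encoded by the Klra genes. The 8 genes described here, Klra1, Klra3, Klra4, Klra5, Klra6, Klra7, Klra8 and Klra9, were chosen by gene symbol among the 36464 Ensembl gene IDs of the deposited tables. They were chosen with their values in these libraries already known, so every difference between the treatments in these 8 genes is a description and carries no test. All 8 symbols were found, and 2 of the 8, Klra3 and Klra7, reached 1 RPKM (reads scaled to exon length and to the depth of the library) in at least 2 libraries, the minimum for entering the fit across all genes.

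RNA was sequenced from CD8+ T cells enriched from percutaneous tumour grafts in wild type male C57BL/6 mice. The treated mice received intraperitoneal injections of a SIGLEC15 antibody and the control mice IgG, for 2 weeks with collection on day 19, and neither the age of the mice nor the line of the grafted tumour is given in the labels. Each treatment had 6 grafts, and cell pellets of 3 samples were mixed for each library, giving 2 anti-SIGLEC15 and 2 IgG libraries, so each SD below is over pools rather than single mice. The comparison asks what SIGLEC15 blockade does to CD8+ T cells in the tumour.

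Most Ly49 receptors recognise MHC class I molecules and inhibit the cell through an immunoreceptor tyrosine-based inhibitory motif (ITIM) near the start of the protein, which recruits the phosphatase SHP-1. The activating members lack this motif and signal through the adaptor DAP12, the product of Tyrobp. Single natural killer cells carry varied combinations of Ly49 receptors, and in CD8+ T cells the receptors are known mainly from subsets of memory phenotype or regulatory cells.

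The first 60 coding bases of the 8 genes, from the GENCODE M21 transcripts on GRCm38, are shown because they hold the codons that separate inhibitory from activating members. Each is written from the first base of the start codon, and the capitals mark codons 6 to 11, where the inhibitory motif lies in the inhibitory members.

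Klra7: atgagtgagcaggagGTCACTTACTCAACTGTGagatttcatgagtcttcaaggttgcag
Klra3: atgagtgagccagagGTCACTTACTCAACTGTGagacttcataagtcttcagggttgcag
Klra9: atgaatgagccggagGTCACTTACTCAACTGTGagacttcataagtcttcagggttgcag
Klra5: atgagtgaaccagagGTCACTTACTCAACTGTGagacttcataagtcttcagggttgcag
Klra6: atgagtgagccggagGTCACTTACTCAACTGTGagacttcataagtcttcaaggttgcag
Klra1: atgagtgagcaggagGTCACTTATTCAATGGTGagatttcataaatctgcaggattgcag
Klra4: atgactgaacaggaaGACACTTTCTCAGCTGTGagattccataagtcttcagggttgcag
Klra8: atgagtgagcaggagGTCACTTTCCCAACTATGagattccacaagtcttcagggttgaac

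A search of the translated codons 6 to 11 found the motif in 6 of the 8 genes, all but Klra4 and Klra8. Counted from the first base of the start codon, Klra4 and Klra8 share the substitution A23T relative to Klra7, in codon 8. Klra4 and Klra8 encode the receptors known as Ly49D and Ly49H, the activating members of this strain. Klra7 (Ly49G), Klra3 (Ly49C), Klra9 (Ly49I), Klra5 (Ly49E), Klra6 (Ly49F) and Klra1 (Ly49A) encode inhibitory receptors.

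The genes lie in a cluster on the minus strand of chromosome 6 in GRCm38, with other Klra genes and pseudogenes between some of them. Klra5 (ENSMUSG00000030173) occupies 129898996 to 129917650, Klra6 (ENSMUSG00000061769) 130013033 to 130026954, and Klra4 (ENSMUSG00000079852) 130043731 to 130067271. Klra8 (ENSMUSG00000089727) occupies 130115226 to 130129898, Klra9 (ENSMUSG00000033024) 130178675 to 130193112, and Klra7 (ENSMUSG00000067599) 130218605 to 130233322. Klra3 (ENSMUSG00000067591) occupies 130323289 to 130337574 and Klra1 (ENSMUSG00000079853) 130363917 to 130386874. All 8 are annotated as protein coding.

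Close copies can share reads, so their transcripts were compared with each other and with 6 other Klra rows of the tables. Over the 28 pairs of the 8 genes, the coding sequences were between 74.3% and 95.9% identical, with Klra3 and Klra9 the most alike at 95.9%. Cut into windows of 50 bases, Klra3 shared 13.5% of its windows with Klra9, and Klra9 shared 13.1% of its windows with Klra3. Klra8 shared 33.1% of its windows with any other Klra gene, the most of the 8, and its closest match was the pseudogene Klra14-ps at 20.4%. Klra7 and Klra3 shared 0% of their 50-base windows with each other, although Klra7 shared 12.3% with the pseudogene Klra13-ps. With windows of 100 bases, the share held in common with any other Klra gene was 14.4% for Klra8, 4.07% for Klra9, 1.83% for Klra7, 1.78% for Klra3 and 0% for the other 4 genes. With windows of 50 bases, that share was 31.5% for Klra9 and 20.7% for Klra3. No source used here gives the read length or the treatment of reads with several matches. Values of Klra8 and Klra9 are therefore the less certain ones, followed by those of Klra3 and Klra7.

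**Figure D1:**
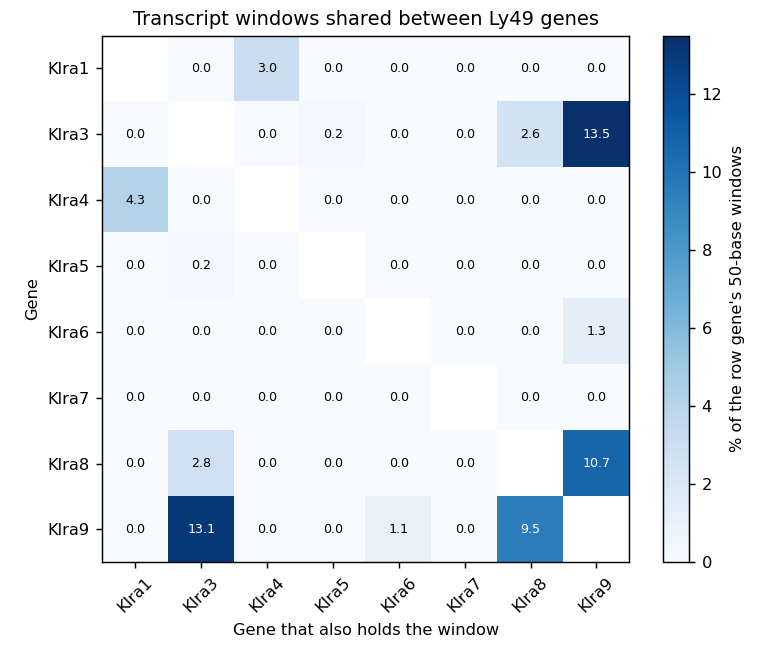
Share of the 50-base windows of each Ly49 gene's transcripts (rows, in percent) that occur unchanged in a transcript of another Ly49 gene (columns). Klra3 and Klra9 share 13.5% and 13.1% of their windows, and the cells between Klra3 and Klra7 are at 0%.

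Library depth and content touch all values below. The libraries held between 14854802 and 16026197 reads counted in genes, recovered from the steps of the RPKM values. Cd8a, a chain of the CD8 coreceptor that defines the labelled cells, was present in every library, at 290 and 315 RPKM in anti-SIGLEC15 replicates 1 and 2, and at 115 and 351 RPKM in IgG replicates 1 and 2. IgG replicate 1 stood apart: the geometric mean of 15 T cell identity genes was 81.5 and 86.5 RPKM in the anti-SIGLEC15 libraries, against 27.7 RPKM in IgG replicate 1 and 89.5 RPKM in IgG replicate 2. The same library was the highest of the 4 in all 5 neutrophil markers and in 5 of 8 hepatocyte and hepatoma markers. All 5 red cell markers were lower with anti-SIGLEC15, at a summed 113 and 19.9 RPKM, against 691 and 1929 RPKM with IgG. The family results below are therefore also given without IgG replicate 1, and no part of these other cells in the Ly49 values was tested.

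The libraries differed in their leading Ly49 gene, also between replicates of the same treatment. Klra7 supplied most family reads in anti-SIGLEC15 replicate 2, whereas Klra3 was the leading gene in the other 3 libraries. The remaining 6 genes reached 1.15 RPKM at most in any library. In bulk samples, fewer cells that carry a receptor and less RNA per cell cannot be told apart.

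Klra7, which encodes the inhibitory receptor Ly49G, measured 2.62 and 32.5 RPKM in anti-SIGLEC15 replicates 1 and 2, against 0.493 and 1.43 RPKM in IgG replicates 1 and 2. Both anti-SIGLEC15 values lay above both IgG values, and anti-SIGLEC15 replicate 2 lay far above the other 3 libraries. These values rest on 52 and 610 reads with anti-SIGLEC15 and on 10 and 28 reads with IgG. The means were 17.5 ± 21.1 RPKM with anti-SIGLEC15 and 0.960 ± 0.660 RPKM with IgG (SD, n = 2 each), so the SD of the anti-SIGLEC15 pair exceeded its mean. On the log2(RPKM + 1) scale, which understates changes of low values, the log2 fold change was 2.53 (SE 1.08). Leaving out anti-SIGLEC15 replicate 2 gave 0.93 and leaving out anti-SIGLEC15 replicate 1 gave 4.14, whereas leaving out IgG replicate 1 or 2 gave 2.18 or 2.88.

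Klra3, which encodes Ly49C, an inhibitory receptor that binds class I molecules of the C57BL/6 strain, measured 7.10 and 2.23 RPKM in anti-SIGLEC15 replicates 1 and 2, against 1.01 and 12.5 RPKM in IgG replicates 1 and 2. The highest and the lowest value both belonged to IgG libraries, so the treatments overlapped. The reads numbered 138 and 41 with anti-SIGLEC15 and 20 and 240 with IgG. The means were 4.67 ± 3.45 RPKM with anti-SIGLEC15 and 6.75 ± 8.12 RPKM with IgG (SD, n = 2 each), with a log2 fold change of -0.03 (SE 1.01). Its direction depended on single libraries: the log2 fold change was -0.69 without anti-SIGLEC15 replicate 1, 0.64 without anti-SIGLEC15 replicate 2, -1.40 without IgG replicate 1 and 1.35 without IgG replicate 2.

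**Figure D2:**
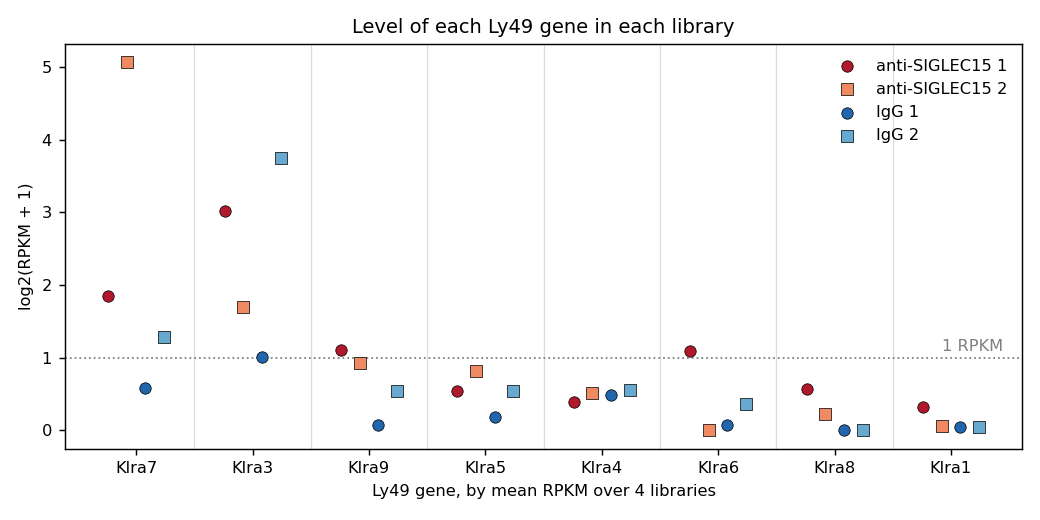
Level of each Ly49 gene as log2(RPKM + 1) in each of the 4 libraries, with the genes ordered by mean RPKM. The highest point is Klra7 in anti-SIGLEC15 replicate 2 at 32.5 RPKM, the Klra3 points run from 1.01 to 12.5 RPKM, and most points of the other 6 genes lie below the dotted line at 1 RPKM.

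Klra9, which encodes the inhibitory receptor Ly49I, measured 1.15 and 0.895 RPKM in anti-SIGLEC15 replicates 1 and 2, against 0.0488 and 0.454 RPKM in IgG replicates 1 and 2. The anti-SIGLEC15 values, from 23 and 17 reads, both lay above the IgG values, from 1 and 9 reads. The means were 1.02 ± 0.177 RPKM with anti-SIGLEC15 and 0.251 ± 0.286 RPKM with IgG (SD, n = 2 each), and the log2 fold change was 0.71, in a range from 0.47 to 0.94 when single libraries were left out. Its log2 fold change depended on the scale: it was 1.96 with a pseudocount of 0.1 and 2.48 by limma-voom on the recovered reads. Klra9 shares the most 50-base windows with Klra3, and within each treatment both genes were higher in the same replicate. Across treatments their orders differed: IgG replicate 2 had the highest Klra3 level and a Klra9 level of 0.454 RPKM. The part of shared reads in these values was not tested.

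Klra6, which encodes Ly49F, was at 1.14 RPKM in anti-SIGLEC15 replicate 1 but had 0 reads in anti-SIGLEC15 replicate 2, against 0.0559 and 0.289 RPKM in IgG replicates 1 and 2. The 20 reads of anti-SIGLEC15 replicate 1 thus made up most of its reads in the series, and a count of 3 reads would have given 0.181 RPKM in anti-SIGLEC15 replicate 2. Klra5, which encodes Ly49E, measured 0.456 and 0.770 RPKM with anti-SIGLEC15 and 0.134 and 0.461 RPKM with IgG, and its ranges overlapped narrowly. Klra1, which encodes Ly49A, had 7 reads and 1 read with anti-SIGLEC15 and 1 read in each IgG library. Its level of 0.253 RPKM in anti-SIGLEC15 replicate 1 was above the 0.108 RPKM that 3 reads would give there, and the other 3 libraries were below their own such floors.

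The activating members were scarce in all libraries. In RPKM, Klra4, which encodes Ly49D, was the steadiest gene of the family. It measured 0.307 and 0.433 RPKM with anti-SIGLEC15 and 0.401 and 0.466 RPKM with IgG, from 6 to 9 reads per library. Its log2 fold change was -0.07, and -0.33 with the libraries scaled to the T cell identity genes. Klra8, which encodes Ly49H, a receptor known for recognising cells infected with mouse cytomegalovirus, had 9 and 3 reads with anti-SIGLEC15 and 0 reads in both IgG libraries. Its level was 0.487 and 0.171 RPKM in anti-SIGLEC15 replicates 1 and 2. Summed per treatment and set against a floor of 3 reads over both IgG libraries, Klra8 was 4.13-fold higher with anti-SIGLEC15. This figure allows for counting error in the IgG libraries only. The 12 anti-SIGLEC15 reads, 9 of them in replicate 1, were taken as counted. Summed over Klra4 and Klra8, the activating members made up 5.66% (95% Wilson interval 3.46 to 9.13) and 1.58% (0.885 to 2.81) of family reads in anti-SIGLEC15 replicates 1 and 2. They made up 18.2% (9.51 to 32.0) in IgG replicate 1, where the family had few reads, and 2.98% (1.58 to 5.57) in IgG replicate 2.

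For 4 of the 8 genes both anti-SIGLEC15 values exceeded both IgG values, namely Klra7, Klra9, Klra8 and Klra1, and for 0 both lay below. For Klra1 this order rests on 1 read in 3 of the libraries and follows their depth. Among all 31373 IDs above 0 in at least 1 library, the same order was seen in 14.1% and the opposite order in 6.29%, and among the 12484 genes tested in 12.1% and 6.02%. The median log2 fold change of the 8 genes, of which only 2 passed the filter, was 0.32. It was 0.02 for all genes tested, which all passed it, and 0.79 for the 15 T cell identity genes. Since the genes were chosen with this contrast known, the count is not evidence of a treatment effect on the family.

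Ordered by mean level over the 4 libraries, Klra7 came first at 9.25 ± 15.5 RPKM and Klra3 second at 5.71 ± 5.24 RPKM (SD, n = 4). Klra9 followed at 0.636 ± 0.485 RPKM, Klra5 at 0.455 ± 0.260 RPKM, Klra4 at 0.402 ± 0.0684 RPKM and Klra6 at 0.372 ± 0.528 RPKM. Klra8 at 0.165 ± 0.229 RPKM and Klra1 at 0.0907 ± 0.108 RPKM were lowest. No neighbours in this order differed by more than the larger of their SDs over libraries, Klra3 and Klra9 included. The first place of Klra7 rests on anti-SIGLEC15 replicate 2: over the other 3 libraries its mean was 1.51 RPKM, and that of Klra3 was 6.87 RPKM.

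The make-up of the family within each library avoids the question of library scale. Klra7 accounted for 19.6% (95% Wilson interval 15.3 to 24.8) of the 265 family reads in anti-SIGLEC15 replicate 1 and for 87.6% (85.0 to 89.9) of the 696 family reads in anti-SIGLEC15 replicate 2. Its share was 22.7% (12.8 to 37.0) of 44 reads in IgG replicate 1 and 9.27% (6.49 to 13.1) of 302 reads in IgG replicate 2. Klra3 accounted for 52.1% (46.1 to 58.0) and 5.89% (4.37 to 7.89) in anti-SIGLEC15 replicates 1 and 2, against 45.5% (31.7 to 59.9) and 79.5% (74.6 to 83.6) in IgG replicates 1 and 2. The intervals cover counting error only, since PCR reads without molecular identifiers are not independent molecules. Within each treatment, the Klra3 shares of the replicates did not overlap in their intervals. Klra7 exceeded Klra3 14.6-fold in RPKM in anti-SIGLEC15 replicate 2, while the ratio of Klra7 to Klra3 was 0.369 in anti-SIGLEC15 replicate 1, 0.489 in IgG replicate 1 and 0.114 in IgG replicate 2.

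**Figure D3:**
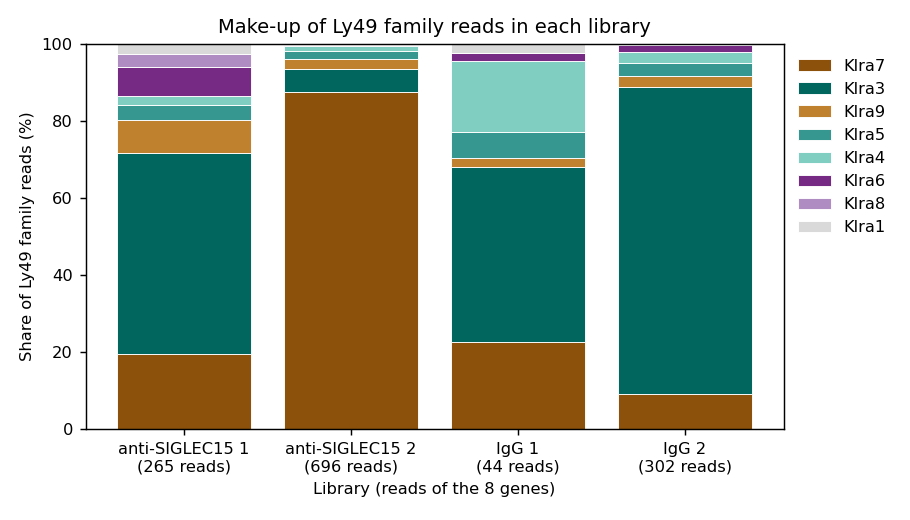
Share of the reads of the 8 Ly49 genes that each gene supplied (percent, stacked bars) in each library, with the number of family reads below each bar. Klra7 fills 87.6% of the bar of anti-SIGLEC15 replicate 2, and Klra3 is the widest band in the other 3 libraries, from 45.5% to 79.5%.

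Summed over the 8 genes and scaled to library depth (RPM), the family reads came to 16.9 and 46.9 RPM in anti-SIGLEC15 replicates 1 and 2, against 2.75 and 19.5 RPM in IgG replicates 1 and 2. IgG replicate 2 lay above anti-SIGLEC15 replicate 1, so the treatments overlapped. The log2 ratio of the group means was 1.52. On the scale of log2 RPM, the difference of the group means was 1.94, beside an SD between replicates of 1.59. For the log2 ratio of 1.52, leaving out anti-SIGLEC15 replicate 1 or 2 gave 2.08 or 0.60. Leaving out IgG replicate 1 or 2 gave 0.71 or 3.54. Without Klra7, an alternative chosen after the data were seen, the sums were 13.6 and 5.79 RPM with anti-SIGLEC15 and 2.12 and 17.7 RPM with IgG, and the log2 ratio was -0.03. Of the 662 Klra7 reads in the anti-SIGLEC15 libraries, 610 were in replicate 2.

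Set against the T cell identity genes of the same library, the summed Ly49 RPKM was 16.6% and 42.8% of their geometric mean in anti-SIGLEC15 replicates 1 and 2, and 7.87% and 17.5% in IgG replicates 1 and 2. The low family sum of IgG replicate 1 was thus accompanied by its low T cell level, but on this scale too it had the lowest value, and anti-SIGLEC15 replicate 1 lay beside IgG replicate 2. Klra7 alone was at 3.21% and 37.5% of the T cell geometric mean with anti-SIGLEC15 and at 1.78% and 1.59% with IgG. Klra3 was at 8.71% and 2.58% with anti-SIGLEC15 and at 3.65% and 13.96% with IgG. Scaling all libraries to the T cell genes moved the median log2 fold change of all genes tested by -0.64, and the log2 fold change of Klra7 was then 2.08 and that of Klra3 -0.46.

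**Figure D4:**
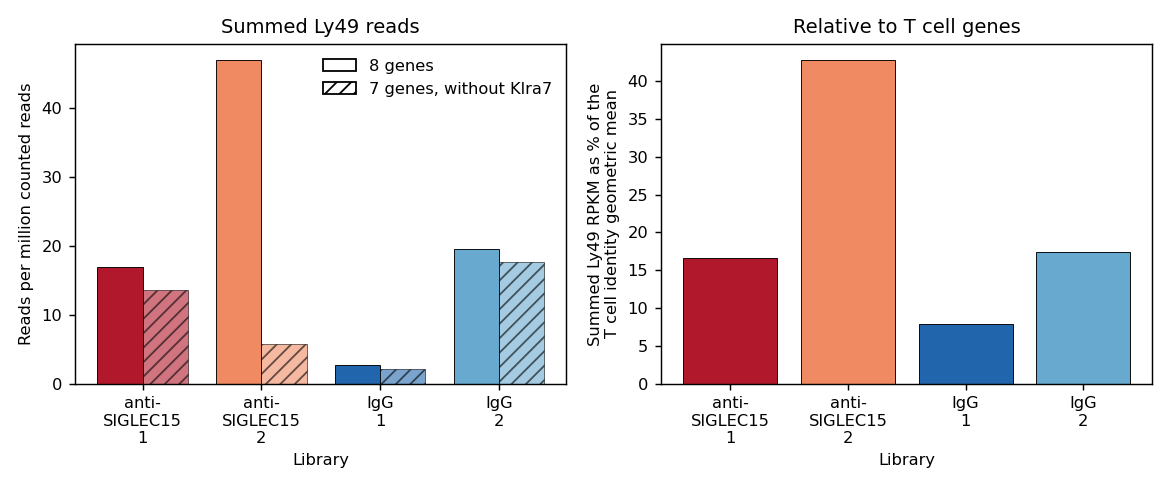
Left, level of the Ly49 genes in RPM in each library, for all 8 genes (plain bars) and without Klra7 (hatched bars). Right, summed Ly49 RPKM as a percentage of the geometric mean of 15 T cell identity genes, where IgG replicate 1 is lowest at 7.87% and anti-SIGLEC15 replicate 2 highest at 42.8%.

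**Figure D5:**
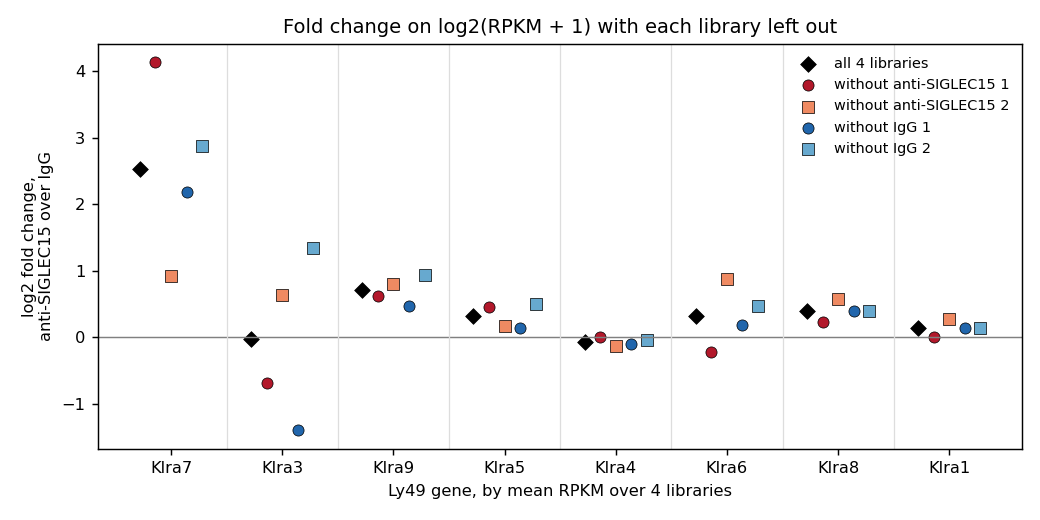
Log2 fold change of anti-SIGLEC15 over IgG on the log2(RPKM + 1) scale for each Ly49 gene, with all 4 libraries (diamonds) and with each library left out in turn. Klra7 runs from 0.93 to 4.14, Klra3 changes direction with the library left out, and Klra9 runs from 0.47 to 0.94.

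The 250 bases upstream of the RefSeq start sites of Klra7 and Klra3 (RefSeq, GRCm38.p6, minus strand) are shown because these leading genes alternated between libraries. The Klra7 window lies at chr6:130233323-130233572 and the Klra3 window at chr6:130337627-130337876. Capitals mark matches to the motifs searched.

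Klra7 upstream: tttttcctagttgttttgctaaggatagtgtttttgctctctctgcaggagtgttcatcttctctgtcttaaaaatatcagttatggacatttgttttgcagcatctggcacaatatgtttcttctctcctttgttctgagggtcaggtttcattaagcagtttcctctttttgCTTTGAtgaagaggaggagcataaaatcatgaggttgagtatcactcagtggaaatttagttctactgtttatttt
Klra3 upstream: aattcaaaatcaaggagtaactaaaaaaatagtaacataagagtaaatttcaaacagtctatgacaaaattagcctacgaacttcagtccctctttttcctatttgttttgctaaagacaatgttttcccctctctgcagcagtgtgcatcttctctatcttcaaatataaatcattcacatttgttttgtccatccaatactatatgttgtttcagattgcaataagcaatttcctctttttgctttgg

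The search covered both strands for CTTTGA, a core of the sites of TCF and LEF factors, TGTGGT, a core of RUNX sites, and GGTGTGA, a core of T-box sites. Of 32851 RefSeq windows of this length, 13.8% held CTTTGA, 4614 held TGTGGT (14.05%) and 3.33% held GGTGTGA. All 8 genes matched a RefSeq entry, with 10 windows in all because Klra7 and Klra8 have a pair of start sites each. CTTTGA was found in 3 of the 10 windows, in both of Klra7 and in that of Klra6, TGTGGT in 1, that of Klra1, and GGTGTGA in 0. The Klra7 and Klra3 windows shown were 43.8% identical in a global alignment, whereas Klra3 and Klra9 were 83.3% identical. A match is a string of letters and was not tested as a binding site.

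Among 15 genes known to take part in the control of Ly49 genes or of lymphocytes that carry them, 1, Runx1, lay higher in both anti-SIGLEC15 libraries and 0 lay lower, beside 12.1% and 6.02% of all genes tested. Tcf7, which encodes the factor TCF-1 that is needed for normal Ly49 expression in mouse natural killer cells, measured 27.1 and 9.95 RPKM in anti-SIGLEC15 replicates 1 and 2, and 25.4 and 9.44 RPKM in IgG replicates 1 and 2. It split the libraries by replicate number and not by treatment. The T-box factor genes were lowest in IgG replicate 1: Tbx21 measured 41.0 and 46.6 RPKM with anti-SIGLEC15 and 12.2 and 46.3 RPKM with IgG, and Eomes 21.8 and 18.2 RPKM with anti-SIGLEC15 and 5.11 and 22.6 RPKM with IgG.

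The signalling partners of Ly49 receptors were present in all libraries. Ptpn6, which encodes SHP-1, measured 53.1 and 52.1 RPKM with anti-SIGLEC15 and 24.1 and 51.8 RPKM with IgG, so the anti-SIGLEC15 values lay just above the higher IgG value. Inpp5d, which encodes the inhibitory phosphatase SHIP-1, measured 11.5 and 10.9 RPKM with anti-SIGLEC15 and 3.92 and 9.13 RPKM with IgG. Tyrobp, the adaptor of the activating receptors, is also abundant in myeloid cells and measured 18.7 and 41.3 RPKM with anti-SIGLEC15 and 58.2 and 5.32 RPKM with IgG. Its order over the libraries was that of the neutrophil markers, whose summed level was 213 and 364 RPKM with anti-SIGLEC15 and 835 and 66.7 RPKM with IgG, and their part in Tyrobp was not tested. Hcst, which encodes the adaptor DAP10, measured 99.5 and 109 RPKM with anti-SIGLEC15 and 33.0 and 107 RPKM with IgG. Of the 15 signalling genes tested, 4 (Ptpn6, Inpp5d, Fyn and Grb2) had both anti-SIGLEC15 values above both IgG values, and 0 had them below. The same orders held for 12.1% and 6.02% of all genes tested, and for 3 and 0 of the 15 T cell identity genes. IgG replicate 1 was the lowest library for 12 of the 15 signalling genes.

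Genes of class I molecules, B2m included, were present in all libraries, and their levels ranged widely. H2-K1 measured 726 and 864 RPKM with anti-SIGLEC15 and 248 and 720 RPKM with IgG, and H2-D1 measured 863 and 1016 RPKM with anti-SIGLEC15 and 669 and 872 RPKM with IgG. H2-Q10 was the lowest of the 10, at 8.37 and 6.75 RPKM with anti-SIGLEC15 and 3.82 and 6.11 RPKM with IgG, below Klra7 in anti-SIGLEC15 replicate 2 and below Klra3 in IgG replicate 2. Of these 10 genes, all tested, 5 lay higher in both anti-SIGLEC15 libraries and 0 lower. The same orders held for 12.1% and 6.02% of all genes tested, and for 3 and 0 of the 15 T cell identity genes. All 10 were lowest in IgG replicate 1. Reads can be shared among the class I genes, whose sequences are close.

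Several other lectin receptors of the same natural killer gene complex, Klrd1, Klrc1 and Klrk1, had a higher RPKM than any of the 8 Ly49 genes in each library. Klrd1, which encodes CD94, measured 192 and 239 RPKM with anti-SIGLEC15 and 78.3 and 269 RPKM with IgG, and its partner Klrc1, which encodes the inhibitory receptor NKG2A, 172 and 243 RPKM with anti-SIGLEC15 and 80.4 and 238 RPKM with IgG. Klrk1, which encodes the activating receptor NKG2D, measured 33.1 and 39.3 RPKM with anti-SIGLEC15 and 12.0 and 37.9 RPKM with IgG. Each of these was lowest in IgG replicate 1. Of 11 tested lectin genes of this complex, 5 lay higher in both anti-SIGLEC15 libraries and 0 lower. The same orders held for 12.1% and 6.02% of all genes tested, and for 3 and 0 of the 15 T cell identity genes. The 5 were Klrg1, Klrc2, Cd69, Clec2d and Clec2i. Klrg1, an inhibitory receptor of effector T cells, measured 13.6 and 12.3 RPKM with anti-SIGLEC15 and 2.38 and 5.15 RPKM with IgG.

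Natural killer cells are the main Ly49 carriers, so their markers stand beside these results. The summed level of the 12 marker genes was 603 and 321 RPKM with anti-SIGLEC15 and 145 and 288 RPKM with IgG, and several of the 12 are also expressed by activated CD8+ T cells. Ncr1, which encodes the natural killer receptor NKp46, measured 0.372 and 0.0437 RPKM with anti-SIGLEC15 and 0.0810 and 0 RPKM with IgG. Klrb1c, which encodes NK1.1, measured 0.732 and 0.136 RPKM with anti-SIGLEC15 and 0 and 0.109 RPKM with IgG. Gzma, a granzyme of natural killer and effector cells, measured 383 and 44.4 RPKM with anti-SIGLEC15 and 34.2 and 69.1 RPKM with IgG, and it supplied most of the sum in anti-SIGLEC15 replicate 1. The 12 markers did not move together: 4 were highest in anti-SIGLEC15 replicate 1, 4 in anti-SIGLEC15 replicate 2 and 2 in each IgG library. Ncr1, Klrb1c and Gzma were highest in anti-SIGLEC15 replicate 1, as were Klra9, Klra6, Klra8 and Klra1. Xcl1, a chemokine gene, and Serpinb9b, a protease inhibitor gene, were highest in anti-SIGLEC15 replicate 2, as was Klra7, with Xcl1 at 152 and 173 RPKM with anti-SIGLEC15 and 53.8 and 127 RPKM with IgG. Serpinb9b measured 13.8 and 35.1 RPKM with anti-SIGLEC15 and 15.4 and 34.3 RPKM with IgG. In each IgG library, 2 of the 12 markers were at 0. The part of natural killer cells in the Ly49 values was not tested. For gamma delta T cells, some of which carry Ly49 receptors, the 5 listed marker genes were summed. The sum was 242 and 243 RPKM with anti-SIGLEC15 and 51.0 and 156 RPKM with IgG. Tcrg-C2 alone supplied 225 and 236 RPKM of it with anti-SIGLEC15 and 46.0 and 133 RPKM with IgG, whereas Tcrg-C1 and Tcrg-C4 were highest in IgG replicate 2 and Sox13 in IgG replicate 1. Trdc, the constant segment of the delta chain, measured 0.379 and 0.174 RPKM with anti-SIGLEC15 and 0.145 and 0.0334 RPKM with IgG. Trac, that of the alpha chain, measured 912 and 900 RPKM with anti-SIGLEC15 and 286 and 958 RPKM with IgG. The sum rests on Tcrg-C2 and does not measure the number of gamma delta T cells, whose part in the family was not tested.

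Genes known from memory phenotype CD8+ T cells, among which Ly49 carriers have been described, were well expressed. Il2rb, which encodes a receptor chain for interleukins 2 and 15, measured 184 and 293 RPKM with anti-SIGLEC15 and 106 and 297 RPKM with IgG. Cxcr3, a chemokine receptor gene, measured 20.2 and 13.2 RPKM with anti-SIGLEC15 and 1.26 and 6.89 RPKM with IgG. Of 13 tested genes of this list, 7 lay higher in both anti-SIGLEC15 libraries and 0 lower. The same orders held for 12.1% and 6.02% of all genes tested, and for 3 and 0 of the 15 T cell identity genes. In the whole list, 13 of 15 genes were lowest in IgG replicate 1.

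The genes of these lists went through the fit across all genes, and 0 of those tested passed. The genes tested were 15 regulators, 15 signalling genes, 10 class I genes (B2m included), 11 lectin genes, 9 natural killer markers and 13 memory phenotype genes. That fit, limma on log2(RPKM + 1) with a threshold of 0.05 on the p adjusted by Benjamini-Hochberg, called 0.0% of 12484 genes, while 146 had an unadjusted p under 0.05. The count depended on single libraries, with 125 genes called once IgG replicate 1 was left out, 2129 once IgG replicate 2 was, and 0 with either anti-SIGLEC15 library left out. Run on the recovered reads of 19549 genes, limma-voom called 0, while 185 had an unadjusted p under 0.05. The median log2 fold change was 0.38 for the regulators, 0.56 for the signalling genes and 0.56 for the class I genes. It was 0.81 for the lectin genes, 0.37 for the natural killer markers and 0.79 for the memory phenotype genes. Beside these stood 0.79 for the T cell identity genes and 0.02 for all genes tested.

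Of the 5951 genes with a mean of at least 5 RPKM that were ranked by likeness to the summed Ly49 RPKM, Gramd3 was the nearest. Its centred log2(RPKM + 1) differed from that of the family by 0.27 on average over the 4 libraries, beside a median of 1.01 over all ranked genes. Gramd3 measured 24.5 and 57.2 RPKM with anti-SIGLEC15 and 6.99 and 21.7 RPKM with IgG. Among the next were Cd6, at a difference of 0.36, Fasl, the gene of a death ligand of killer cells, at 0.42, and Rasgrp1 at 0.42, and Cd6 is also in the T cell identity list. With 4 libraries, such a ranking describes these profiles only.

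The 8 genes held most of the reads of all Klra rows in each library but IgG replicate 1. Their share was 78.2% and 91.3% in anti-SIGLEC15 replicates 1 and 2, and 42.3% and 81.8% in IgG replicates 1 and 2. Klra2, an inhibitory member that lies apart from the cluster and is known from myeloid cells, measured 1.04 and 1.31 RPKM with anti-SIGLEC15 and 1.71 and 0.476 RPKM with IgG, with its highest value in IgG replicate 1. The pseudogene Klra13-ps, which lies between Klra7 and Klra3, measured 1.65 and 0.841 RPKM with anti-SIGLEC15 and 0 and 3.10 RPKM with IgG. Its order over the libraries was that of Klra3, its neighbour, and not that of Klra7, with which it shares sequence. The part of shared reads in its values was not tested.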

How the data were processed

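Per the labels' protocols, RNA bound to oligo beads was read on the DNBSEQ-G50 platform. The deposited files hold 1 value per gene and library, and the unit, not named in them, was taken to be RPKM as made by the authors: multiplied by GENCODE M21 exon length, the values of a library were whole multiples of 1 step (98.92% to 98.97% of genes under 1000 reads, tolerance 0.02). The steps gave the read numbers used here. The submitters' processing notes name GRCm38 and mm10. No aligner or counter is named in the sources used here. Symbols were found for 36346 IDs, and 118 had none.

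Titles gave each library's treatment. The fit used limma 3.58.1 (R 4.3.3) with trend and robust shrinkage on log2(RPKM + 1), for genes reaching 1 RPKM in 2 or more libraries. It was run on simulated reads, drawn from the same mean levels in all libraries apart from the genes set to change. The simulation thus does not cover the difference in T cell content between the real libraries. Alternatives were a pseudocount of 0.1, no filter, a filter at 5 RPKM, median-of-ratios and T cell scaling, limma-voom on reads (at least 10 in all), a replicate block, and leaving out each library in turn. Leaving out Klra7 was added after the data were seen. The 8 genes and all lists were chosen with earlier results of these data known. Named genes were the 8 members, the other Klra rows, members of the lists, and the 5 genes with a mean of at least 5 RPKM closest to the family sum, leaving out predicted models, pseudogenes and receptor segments; 1 gene this rule names is not reported here. Window sharing and motifs were computed with Biopython 1.88.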

Additional observations from a re-analysis of the deposited data

How the results depend on the processing

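The number of genes called across the table was 0 as reported and under the pseudocount of 0.1, no filter, the filter at 5 RPKM, median-of-ratios scaling, limma-voom and the replicate block, and 3 under T cell scaling. With single libraries left out it ran from 0 to 2129: leaving out IgG replicate 1 gave 125, leaving out IgG replicate 2 gave 2129, and leaving out either anti-SIGLEC15 library gave 0, where the lone library is taken to vary as the pair does. The family log2 ratio of 1.52 was 1.51 with the pseudocount, 1.57 with median-of-ratios scaling and 1.24 with T cell scaling, and ran from 0.60 to 3.54 with single libraries left out (3.54 without IgG replicate 2). The number of Ly49 genes higher in both anti-SIGLEC15 libraries was 4 under both scalings, but with T cell scaling Klra5 took the place of Klra1. With single libraries left out the number ran from 4 to 6. It cannot fall there, because leaving out a library only eases the rule, so this range is no check of the count. Among single genes, Klra3 turned its sign in 4 of 11 alternatives and Klra6 in 1 of 10, without anti-SIGLEC15 replicate 1, and the other 6 kept theirs. The filter at 5 RPKM kept Klra3 and left out the other 7. The libraries share only a replicate number: their deviations correlated at 0.33 over 12484 genes between the treatments, and with the replicate block 0 genes were called. The block leaves every fold change as it is in this balanced design. For the family sum the paired value was 1.94, the mean of the log2 ratios of same-numbered libraries, which equals the unpaired difference of mean log2 values. It differs from 1.52 because 1.52 is the log2 ratio of arithmetic means. Depth limits Klra1, Klra4, Klra5 and Klra8, which had 16 reads or fewer in each library.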
